A study of Arabidopsis thaliana with 8 samples.

Results

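NBS-LRR genes encode the intracellular immune receptors of plants, named for a nucleotide-binding site and a leucine-rich repeat region. The set described here held the protein-coding genes on chromosomes 1 to 5 of *Arabidopsis thaliana* whose RefSeq product name contains NBS-LRR or NB-ARC in any transcript, which were 141 of 27444 genes. By the same product names, 91 belonged to the TIR class, 25 to the CC class and 25 were named for neither. Receptors whose product name lacks both terms, such as ZAR1 and ADR1-L1, were outside the set. Members separated by at most 8 other protein-coding genes and at most 200 kb were called clustered, which gave 96 clustered members in 34 clusters and 45 single members.

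A typical receptor has an N-terminal signalling domain, a central nucleotide-binding switch and a C-terminal repeat region that often takes part in recognition. Some members of the set are shorter and lack part of this plan. In the classes named here the N-terminal domain is a Toll/interleukin-1 receptor (TIR) domain or a coiled coil (CC). TIR receptors signal through the lipase-like protein EDS1. The P-loop at the front of the switch binds the nucleotide and the MHD motif lies at its back. Many of these genes lie in tandem arrays of similar copies, and their transcripts are kept low by several layers of control.

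R-loops hold a DNA:RNA hybrid beside a freed strand of DNA. They were mapped by DRIP-seq, in which fragments with such hybrids are pulled down with the antibody S9.6 and sequenced. The *ndx1-4* plants carry a T-DNA insertion in NODULIN HOMEOBOX (NDX) in the Col-0 background, and the reference plants were wild-type Col-0. All libraries were made from 10-day-old seedlings, with 1 input library, 2 immunoprecipitated libraries and 1 immunoprecipitated library treated with RNase H (labelled RNaseH1) per genotype. Seedlings were pooled by weight and held all seedling tissues. The values below come from 1 deposited peak list per genotype, with 13549 peaks in *ndx1-4* and 14180 peaks in Col-0. One list per genotype leaves no replicate error and no test between the genotypes, and intervals are Wilson 95% intervals that cover counting error only. How deeply the libraries were sequenced is unknown, and a difference in depth between the lists cannot be told apart from genotype. Scores are the deposited whole numbers, whose meaning is not given, and were ranked only within a list. Neighbouring members can share a peak, so members are not independent of each other.

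The stretches below show what the coding peaks of members look like. They were read from TAIR10.1 (RefSeq) on the coding strand, 5′ to 3′, with runs of at least 8 purines (A or G) in capitals, and each lay wholly in coding sequence under an *ndx1-4* peak. RPS4 and AT4G08450 are TIR genes with a peak at the end of the coding sequence, RPP13 and SUMM2 have a peak near the start of it, AT4G19050 had the longest peak over a member's own body, AT1G65850 was the one member with a peak in *ndx1-4* alone, and RRS1 had a coding stretch without such a run. RPP13, AT4G08450, SUMM2 and RRS1 were chosen after their values were seen.
RPS4 (chr5:18321947-18322246, minus strand): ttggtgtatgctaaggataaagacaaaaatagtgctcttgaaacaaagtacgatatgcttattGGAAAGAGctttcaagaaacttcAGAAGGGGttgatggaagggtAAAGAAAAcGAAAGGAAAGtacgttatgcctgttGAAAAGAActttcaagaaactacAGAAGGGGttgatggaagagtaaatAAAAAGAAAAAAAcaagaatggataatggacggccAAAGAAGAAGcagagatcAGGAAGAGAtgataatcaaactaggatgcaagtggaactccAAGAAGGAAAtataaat
RRS1 (chr5:18329121-18329264, plus strand): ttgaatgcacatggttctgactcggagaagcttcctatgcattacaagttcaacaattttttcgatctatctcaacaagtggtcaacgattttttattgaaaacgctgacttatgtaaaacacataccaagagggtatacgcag
AT4G08450 (chr4:5370781-5371060, plus strand): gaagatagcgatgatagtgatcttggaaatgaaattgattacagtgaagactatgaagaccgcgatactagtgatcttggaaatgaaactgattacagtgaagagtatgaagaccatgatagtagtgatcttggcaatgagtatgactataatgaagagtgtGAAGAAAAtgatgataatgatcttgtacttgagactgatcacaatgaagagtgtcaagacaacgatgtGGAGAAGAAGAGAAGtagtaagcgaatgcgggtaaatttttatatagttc
SUMM2 (chr1:4177341-4177559, minus strand): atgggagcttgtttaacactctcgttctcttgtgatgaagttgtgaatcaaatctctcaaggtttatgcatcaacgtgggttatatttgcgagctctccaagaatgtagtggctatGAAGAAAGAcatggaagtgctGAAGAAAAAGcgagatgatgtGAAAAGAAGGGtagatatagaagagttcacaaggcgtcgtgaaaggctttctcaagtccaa
RPP13 (chr3:17132781-17133000, minus strand): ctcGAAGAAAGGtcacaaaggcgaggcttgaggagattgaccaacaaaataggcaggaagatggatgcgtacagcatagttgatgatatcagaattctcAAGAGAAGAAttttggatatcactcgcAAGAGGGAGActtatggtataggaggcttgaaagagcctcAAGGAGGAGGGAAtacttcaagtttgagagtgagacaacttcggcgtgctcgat
AT4G19050 (chr4:10443414-10443713, minus strand): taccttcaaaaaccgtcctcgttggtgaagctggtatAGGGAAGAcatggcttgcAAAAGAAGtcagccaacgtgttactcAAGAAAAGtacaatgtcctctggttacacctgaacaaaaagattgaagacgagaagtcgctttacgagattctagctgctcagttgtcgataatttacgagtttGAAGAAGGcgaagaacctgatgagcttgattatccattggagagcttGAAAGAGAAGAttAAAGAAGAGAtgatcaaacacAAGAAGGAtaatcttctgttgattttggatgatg
AT1G65850 (chr1:24494903-24495120, plus strand): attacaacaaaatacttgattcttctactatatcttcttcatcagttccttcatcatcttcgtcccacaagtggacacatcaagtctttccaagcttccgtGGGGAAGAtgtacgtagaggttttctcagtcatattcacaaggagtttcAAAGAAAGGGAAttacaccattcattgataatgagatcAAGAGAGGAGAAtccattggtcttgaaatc

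The RPS4 stretch held 70.3% purines and 10 such runs, the longest of 13 bases. Purines made up 64.3% of the AT4G08450 stretch, 64.1% of the RPP13 stretch, 58.7% of the AT4G19050 stretch and 58.4% of the SUMM2 stretch. The AT1G65850 stretch had 48.6% purines and the RRS1 stretch 50%. Over peaks that lay mostly in the coding sequence of one member, the median purine share of the coding strand was 58.5% in *ndx1-4* (22 peaks) and 60% in Col-0 (23 peaks), while the coding sequence of all members held 53.1%. Among coding peaks of all protein-coding genes the medians were 57.5% in *ndx1-4* and 57.8% in Col-0, so the coding strand was the purine-richer one over coding peaks of members and of genes at large. Runs of at least 8 purines were counted over the full length of member peaks mostly in coding sequence, non-coding bases included. They occurred 11.3 times per kb in *ndx1-4* (24 peaks) and 10.8 times per kb in Col-0 (26 peaks). The whole coding sequence of members held 5.39 per kb, and the rate in coding peaks of all genes was not counted. Peaks that lay mostly in the 5′ untranslated region (UTR) of members were instead poor in purines, with medians of 39.6% in *ndx1-4* and 39.2% in Col-0 (6 peaks each).

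A member was counted as having a peak where a peak shared at least 1 base with the gene or 500 bases on each side. In *ndx1-4*, 55 of 141 members had a peak (39.0%, interval 31.3 to 47.2%), and in Col-0, 62 members had one (44.0%, interval 36.0 to 52.2%). Over all protein-coding genes the same counts gave 36% in *ndx1-4* and 37.6% in Col-0, both inside the members' intervals. A peak in both lists was found for 54 members (38.3%), beside 34% of all genes, and 78 members (55.3%) had none in either list. Only *ndx1-4* had a peak at 1 member (0.709%), beside 1.96% of all genes, and only Col-0 had one at 8 members (5.67%, interval 2.90 to 10.8%), beside 3.63% of all genes. The background of the Col-0-only count also lay inside its interval. With the gene body alone, 50 members had a peak in *ndx1-4* (35.5%) and 51 in Col-0 (36.2%). All protein-coding genes then stood lower, at 28.2% in *ndx1-4* and 29.6% in Col-0. Counting only peaks over the member and no other gene, a choice made after seeing the data, gave 43 in each list (30.5%). The same count gave 24.8% of all protein-coding genes in *ndx1-4* and 25.9% in Col-0.

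**Figure D1:**
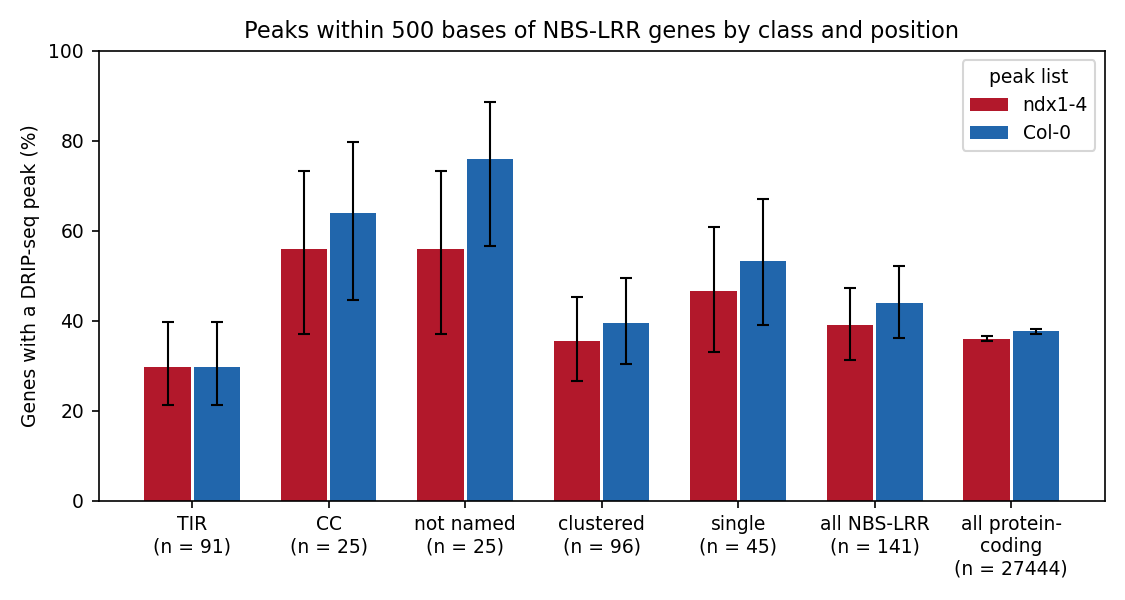
Percent of genes with a DRIP-seq peak within 500 bases in the *ndx1-4* list (red) and the Col-0 list (blue), by receptor class, by position and for all protein-coding genes, with Wilson 95% intervals. TIR genes stood at 29.7% in both lists, below the 56% (*ndx1-4*) and 64% (Col-0) of CC genes.

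Members were long genes, with a median of 4445 bases beside 2078 bases for all protein-coding genes, and a longer gene offers more room for a peak. Among genes of 4 to 6 kb, 37.5% of the 64 members had a peak in *ndx1-4* and 37.5% in Col-0, against 50.2% (*ndx1-4*) and 52.7% (Col-0) of all protein-coding genes of that length. Between 2 and 4 kb the members stood at 37.5% in *ndx1-4* and 50% in Col-0, with 41.7% (*ndx1-4*) and 43.5% (Col-0) for all genes. Peaks covered 3.03% of the members' windows in *ndx1-4* and 3.39% in Col-0, less than the 4.66% (*ndx1-4*) and 5.05% (Col-0) of all protein-coding windows. Member peaks were also short. Peaks of at least 500 bases made up 9.46% of member peaks in *ndx1-4* and 8.54% in Col-0, beside 22.9% of the whole *ndx1-4* list and 25.0% of the whole Col-0 list. In the upper 50% of scores of their own list were 24 of 74 member peaks in *ndx1-4* (32.4%) and 29 of 82 in Col-0 (35.4%).

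In the TIR class, 27 of 91 genes had a peak in *ndx1-4* and 27 in Col-0 (29.7% each, interval 21.3 to 39.7%). In the CC class, 14 of 25 genes had one in *ndx1-4* (56%, interval 37.1 to 73.3%) and 16 in Col-0 (64%, interval 44.5 to 79.8%). Of the genes named for neither class, 14 of 25 had a peak in *ndx1-4* (56%) and 19 in Col-0 (76%, interval 56.6 to 88.5%). Peaks covered 1.97% of TIR windows, 3.70% of CC windows and 6.62% of the remaining windows in *ndx1-4*. The Col-0 figures were 2.17%, 4.03% and 7.65%, in the same order of classes. No test of the class difference was made, since genes of a cluster are not independent. CC peaks were the lower-scoring ones, with a median at 30.6% of the *ndx1-4* list and 24.9% of the Col-0 list, against 41.7% (*ndx1-4*) and 41.8% (Col-0) for TIR peaks. With only the higher-scoring 50% of each list the higher CC share was lost in *ndx1-4*. There 3 CC genes (12%) and 12 TIR genes (13.2%) had a peak, while Col-0 had 5 CC (20%) and 13 TIR genes (14.3%). With only peaks of at least 500 bases no CC gene had a peak in either list. TIR genes then had 2 in *ndx1-4* (2.20%) and 3 in Col-0 (3.30%), too few to order the classes. With only peaks of at least 300 bases the higher CC share was lost in *ndx1-4* too, at 4 CC (16%) and 15 TIR genes (16.5%). Col-0 then had 6 CC (24%) and 19 TIR genes (20.9%).

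Genes outside the TIR class also had the higher share at like gene length, by a smaller gap between 2 and 4 kb. In that band 27.3% of 22 TIR genes had a peak in *ndx1-4* and 31.8% in Col-0. The 34 other members of that length stood at 44.1% in *ndx1-4* and 61.8% in Col-0. Among genes of 4 to 6 kb, 26% of 50 TIR genes had a peak in *ndx1-4* and 24% in Col-0. The 14 genes of that length outside the TIR class stood at 78.6% in *ndx1-4* and 85.7% in Col-0. Those 14 included AT1G58807, AT1G58848, AT1G59124 and AT1G59218, whose peaks in both lists consisted wholly of sequence repeated in the reference. The median repeated share of a window was 22.6% in the 14 genes and 0.786% in the 50 TIR genes. The gap at 4 to 6 kb was not recounted without such peaks. A second reading of the class used the residue that closes the kinase-2 motif of the switch, aspartate in TIR and tryptophan in CC proteins. It could be read in 85 members, of which no TIR-named gene read as CC and no CC-named gene read as TIR. Of the 43 members that read as TIR, 27.9% had a peak in *ndx1-4* and 27.9% in Col-0, and of the 42 that read as CC, 61.9% had one in *ndx1-4* and 71.4% in Col-0. The unnamed genes were mostly of this CC kind, with 19 read as CC, 2 as TIR and 4 not read. AT5G40060, counted above among the 14 genes and with a peak in both lists, was among the 2 read as TIR. RPM1, RPP13, SUMM2 and LOV1 were among the unnamed genes.

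The classes also stood apart in position. In TIR genes 2.21% of the bases between 100 and 200 bases after the gene start were covered in *ndx1-4* and 2.60% in Col-0. Over all protein-coding genes, whose peaks gathered just after the start, the same bases had 11.4% covered in *ndx1-4* and 12.0% in Col-0. CC genes reached 16% in *ndx1-4* and 12% in Col-0 between 200 and 300 bases after the start, and in the first 100 bases before it 0% was covered in *ndx1-4* and 3.16% in Col-0. Unnamed genes had 20.4% covered in both lists between 200 and 300 bases after the start, and were already covered ahead of it, with 18.2% of the first 100 bases before the start in *ndx1-4* and 23% in Col-0. At the other end, 6.96% of TIR bases lying 100 to 200 bases inside the gene end were covered in *ndx1-4* and 6.92% in Col-0. In the first 100 bases past the end, CC genes had 9.68% covered in *ndx1-4* and 11.3% in Col-0, and unnamed genes 21.4% in *ndx1-4* and 22.2% in Col-0. All protein-coding genes had 3.74% covered there in *ndx1-4* and 4.02% in Col-0.

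**Figure D2:**
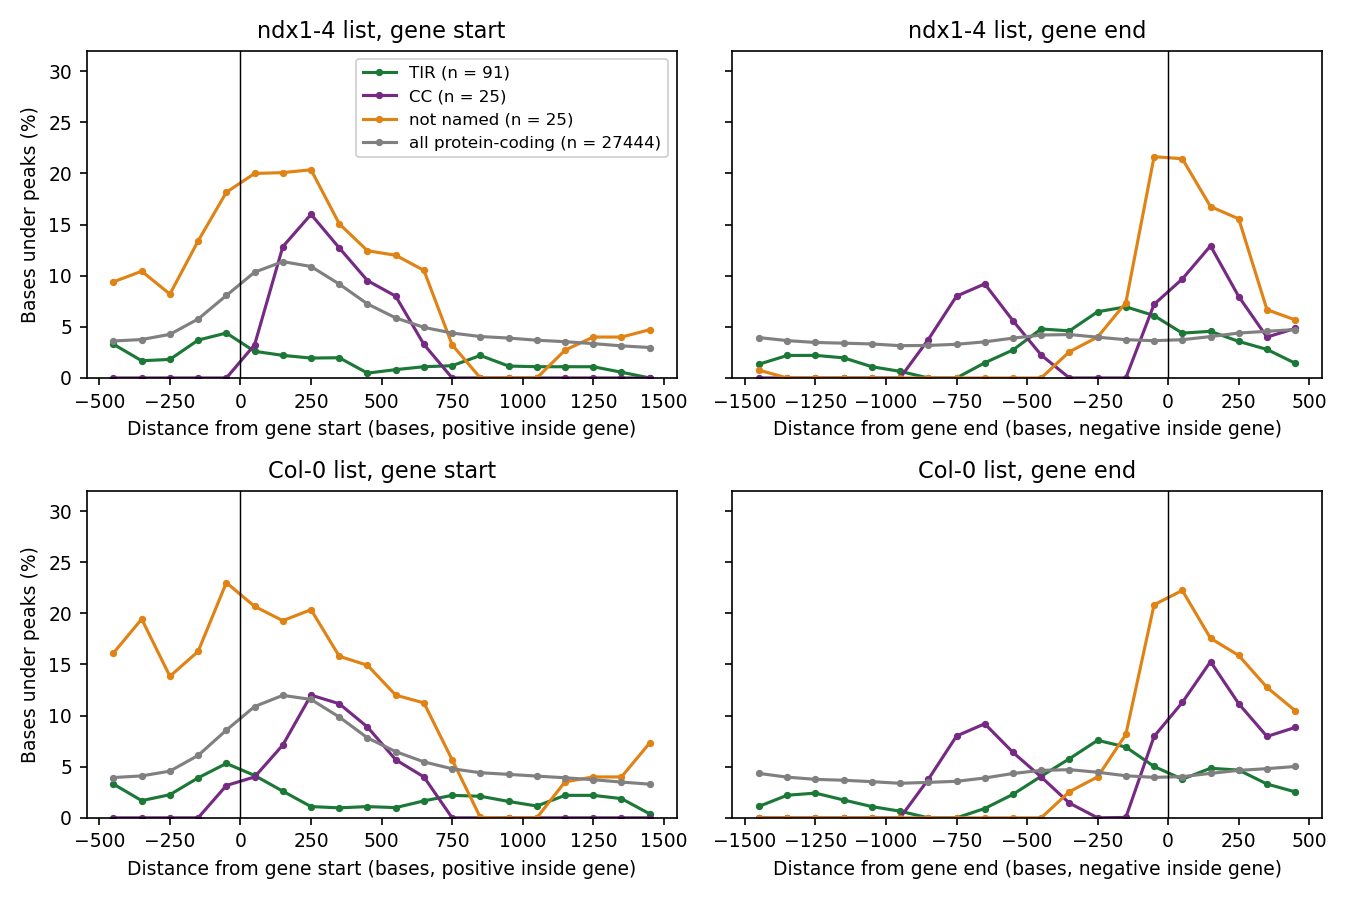
Percent of bases under peaks in 100-base steps around the gene start and the gene end, for TIR, CC and unnamed genes and for all protein-coding genes, with the *ndx1-4* list above and the Col-0 list below. TIR genes stay under the rise that all genes show after the start, unnamed genes are covered on both sides of the start, and CC and unnamed genes have a second rise at the gene end.

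Counted by peak, 23 peaks in *ndx1-4* and 24 in Col-0 had their centre inside a TIR gene. Of these, 14 in *ndx1-4* (60.9%, interval 40.8 to 77.8%) and 12 in Col-0 (50%, interval 31.4 to 68.6%) lay in the last of 3 equal parts of the gene. CC and unnamed genes had 6 of 27 in that part in *ndx1-4* (22.2%) and 6 of 28 in Col-0 (21.4%). Over all protein-coding genes the share was 24.4% in *ndx1-4* and 24.9% in Col-0, and over those of 4 to 6 kb it was 24.0% in *ndx1-4* and 23.3% in Col-0.

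By feature, the coding sequence of members had 1.66% of its bases under peaks in *ndx1-4* and 1.75% in Col-0, beside 3.72% (*ndx1-4*) and 4.13% (Col-0) over all genes. The classes went different ways in the UTRs. In the 5′ UTR, TIR genes had 5.28% of bases covered in *ndx1-4* and 5.26% in Col-0, CC genes 1.33% in *ndx1-4* and 1.49% in Col-0, and unnamed genes 22.7% in *ndx1-4* and 22.4% in Col-0. All protein-coding genes, at 14.8% in *ndx1-4* and 15.7% in Col-0, lay between the classes. In the 3′ UTR, TIR genes had 6.42% covered in *ndx1-4* and 5.97% in Col-0, and unnamed genes 13.6% in both lists. CC genes had 3.17% of the 3′ UTR covered in *ndx1-4* and 3.52% in Col-0, below the 3.65% (*ndx1-4*) and 4.02% (Col-0) of all genes.

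**Figure D3:**
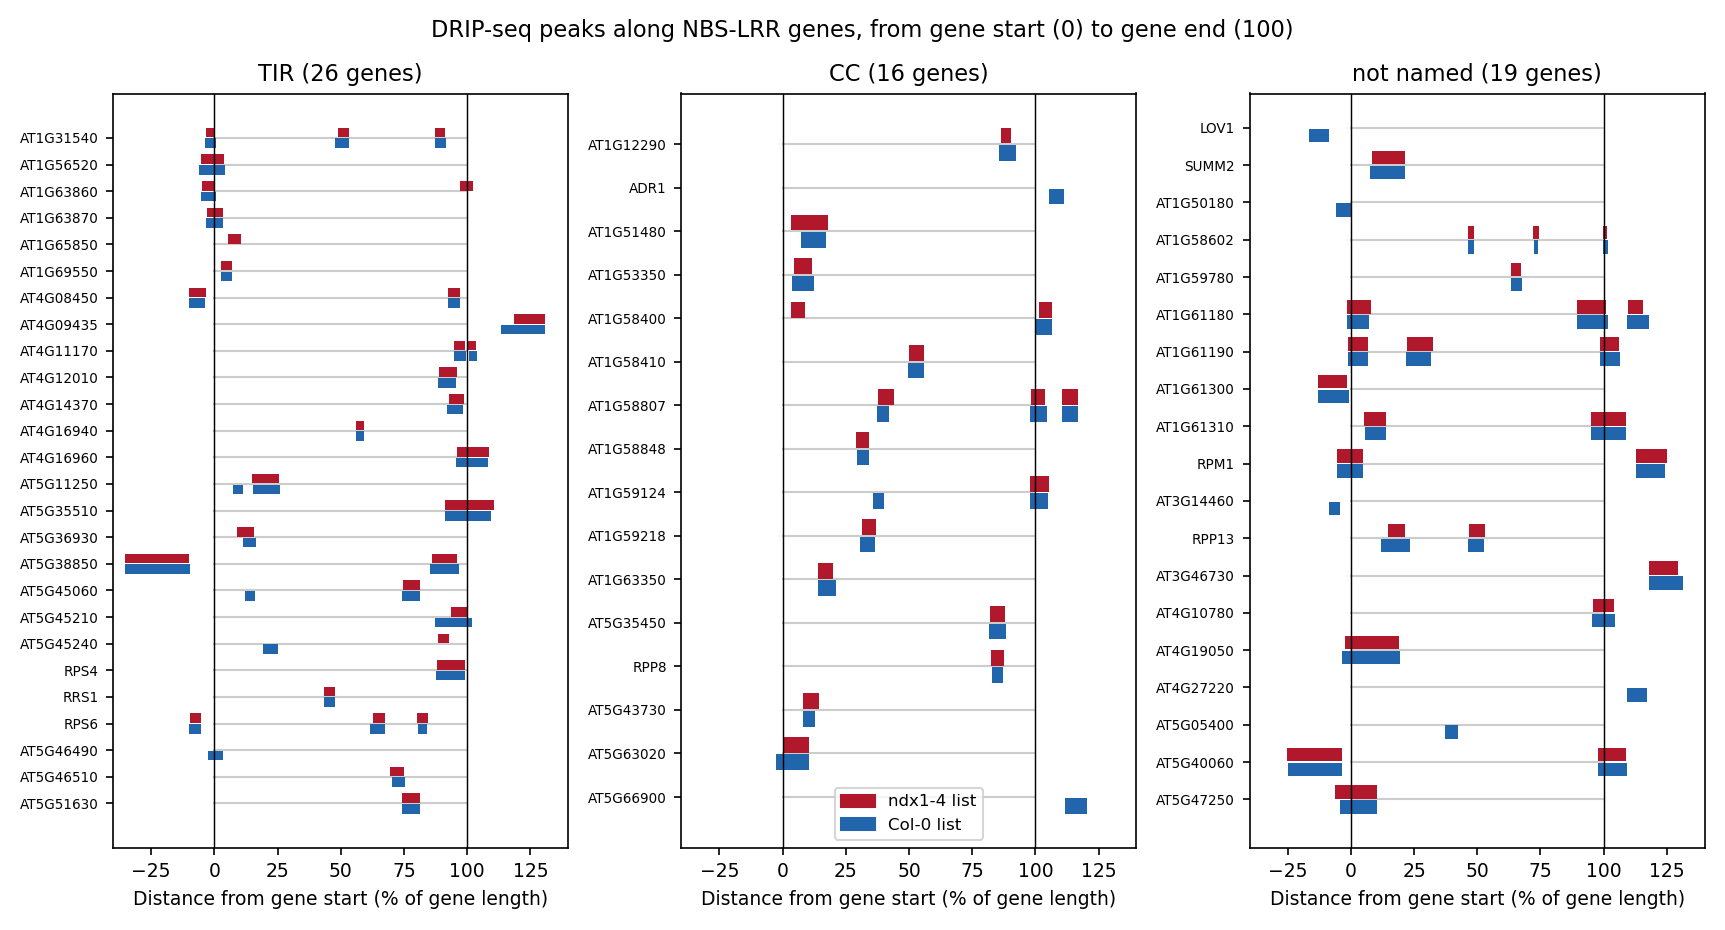
Peaks of the *ndx1-4* list (red, upper) and the Col-0 list (blue, lower) along 61 NBS-LRR genes, placed by distance from the gene start in percent of gene length, with flanks left of 0 and right of 100. Each peak is drawn once, on the member it overlaps most, so 2 of the 63 members with a peak (AT1G63880 and AT5G45220) have theirs on a neighbour.

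Among TIR genes, 14 peaks in *ndx1-4* and 14 in Col-0 held at least 100 coding bases. Their middle fell in the last 50% of the protein in 11 peaks in *ndx1-4* and 12 in Col-0, and the median middle lay at 95.2% of the protein length in *ndx1-4* and 95.5% in Col-0. Among CC genes, 9 of 11 such peaks in *ndx1-4* and 10 of 12 in Col-0 lay in the first 50%, with median middles at 35.6% in both lists. Of the 11 CC peaks in *ndx1-4*, 4 lay between the P-loop and the MHD motif, 3 of them in near-identical copies. RPP8 and AT5G35450 had theirs near the C-terminal end, as in most TIR coding peaks, in sequence partly repeated in the genome. RPS4 was covered from residue 1096 to the stop codon in *ndx1-4* and from residue 1090 in Col-0, in a protein of 1217 residues. AT4G08450 was covered over residues 1129 to 1222 of 1234 in both lists. AT5G51630 was covered over residues 1154 to 1228 in both lists. On the CC side, AT1G53350 was covered over residues 8 to 88 in *ndx1-4* and 1 to 94 in Col-0, of 906. AT5G63020 was covered over residues 1 to 68 of 888 in both lists.

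The P-loop and the MHD motif were both found in 111 members. Between the motifs no base of the 54771 coding bases of 66 TIR genes lay under a peak in *ndx1-4* or in Col-0. Past the MHD motif 1.58% of TIR coding bases were covered in *ndx1-4* and 1.72% in Col-0. The repeats were not located within that part, so its peaks are not placed in or outside them. Ahead of the P-loop the TIR figures were 0.955% in *ndx1-4* and 0.726% in Col-0. In 23 CC genes, 10.3% of the coding bases ahead of the P-loop were covered in *ndx1-4* and 9.40% in Col-0. Between the CC motifs the figures were 3.90% in *ndx1-4* and 4.07% in Col-0, and past the MHD motif 1.79% in both lists. The unnamed genes followed the CC order, with 6.89% ahead of the P-loop in *ndx1-4* and 7.65% in Col-0, and 0.0229% past the MHD motif in both lists.

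**Figure D4:**
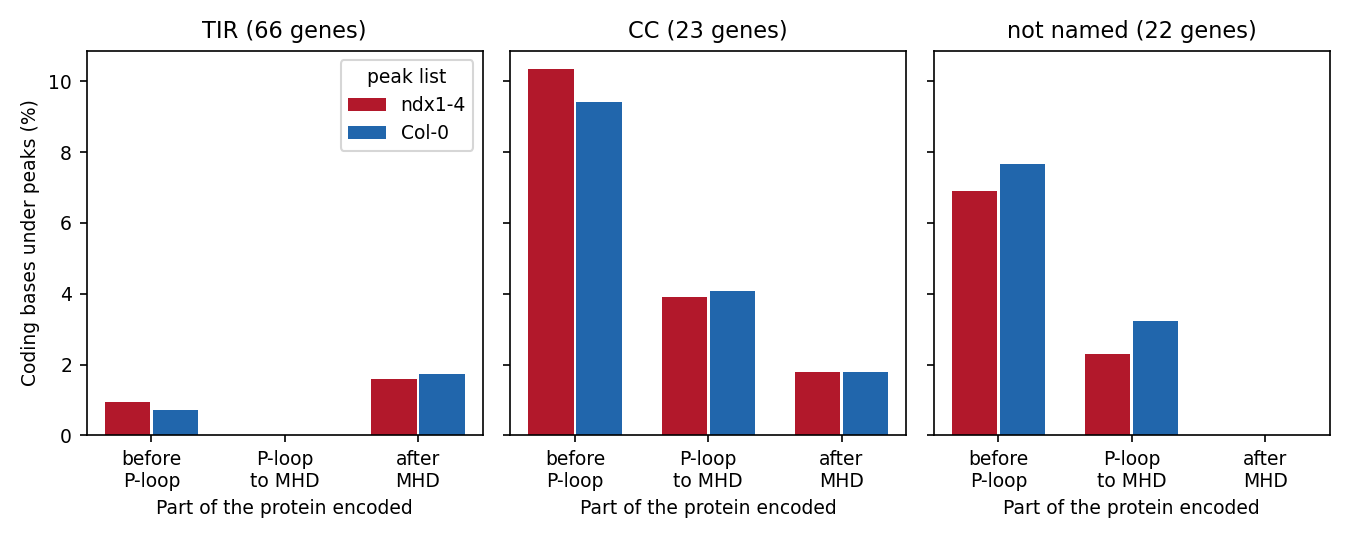
Percent of coding bases under peaks ahead of the P-loop, between the P-loop and the MHD motif, and past the MHD motif, in the *ndx1-4* list (red) and the Col-0 list (blue), over 111 NBS-LRR genes with both motifs. TIR genes have no covered base in the middle part, and CC genes have 10.3% (*ndx1-4*) and 9.40% (Col-0) covered ahead of the P-loop.

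Among receptors with a known role, RPS4 had the strongest member peak. RPS4 and RRS1 are divergent neighbours that act together as one receptor for bacterial effectors, and RRS1 carries an integrated WRKY domain. The RPS4 peak ran over chr5:18321801-18322280 in *ndx1-4* (480 bases, score 214) and chr5:18321801-18322300 in Col-0 (500 bases, score 213), with 367 coding bases in *ndx1-4* and 387 in Col-0. The RRS1 peak had the same edges in both lists, chr5:18329121-18329400, with 144 coding bases and 136 intronic bases and scores of 141 in *ndx1-4* and 134 in Col-0. It covered residues 855 to 902 of 1288. Their starts face each other at chr5:18326175 (RPS4) and chr5:18326203 (RRS1), so the space between them is shorter than the shortest peak, 200 bases. No peak of either list lay within 500 bases of either start.

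RPM1, which senses bacterial effectors that act on RIN4, had a peak across its start (380 bases in both lists, with identical edges) and another past its end (460 bases in *ndx1-4* and 420 in Col-0). Both RPM1 peaks also overlapped a neighbouring gene. SUMM2, which guards a MAP kinase cascade, had a peak of 420 bases in *ndx1-4* and 440 in Col-0 over its 5′ UTR, an intron and the first 73 codons. RPP13 and RPP8 confer resistance to downy mildew. RPP13 had 2 coding peaks, of 220 and 200 bases in *ndx1-4* and 360 and 200 bases in Col-0. The longer one covered residues 83 to 156 in *ndx1-4* and 56 to 176 in Col-0, ahead of the P-loop at residue 192. RPP8 had 1 peak near its C-terminal end, residues 819 to 899 of 908 in *ndx1-4* and 826 to 892 in Col-0. AT5G35450, another CC gene, was covered at the matching end, residues 794 to 887 of 901 in *ndx1-4* and 788 to 894 in Col-0.

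RPS6, a TIR receptor of a bacterial effector, had 3 peaks in each list. They measured 320, 340 and 300 bases in *ndx1-4* and 320, 440 and 260 bases in Col-0, 1 upstream and the others in the distal part of the gene. RPS2, which guards RIN4, had no peak in either list. Nor did RPP1, RPP4, RPP5, SNC1, CSA1, LAZ5, RLM1 or WRR4, all of the TIR class. In a list of 35 receptors with a known role, 27 were members. Of these, 9 had a peak in *ndx1-4* (33.3%) and 13 in Col-0 (48.1%), beside 36% (*ndx1-4*) and 37.6% (Col-0) of all genes, with 9 in both lists and 14 in neither.

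The members with a peak in 1 list alone had weak, short peaks. AT1G65850 had a 220-base peak in *ndx1-4* (score 62, at or above 3.89% of that list) over residues 22 to 94, at the TIR end of the protein. The nearest Col-0 peak was 4700 bases away. The 8 members with a peak only in Col-0 were LOV1, ADR1, AT1G50180, AT3G14460, AT4G27220, AT5G05400, AT5G46490 and AT5G66900. Their peaks were 200 to 280 bases long with scores of 65 to 81, which placed them between 6.21% and 29.6% of the Col-0 list. Only 3 of the 8 touched the gene itself. AT5G05400 was covered over 200 coding bases (residues 190 to 257), AT5G46490 over 116 bases at its start and AT1G50180 over 17 bases. For ADR1, a helper receptor that acts downstream of other receptors, the 200-base Col-0 peak lay wholly past the gene end. The LOV1, AT3G14460, AT4G27220 and AT5G66900 peaks also lay outside the gene and over a neighbouring gene, so they cannot be assigned to the receptor.

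Partner peaks, which share at least 1 base between the lists, were found for 70 of 74 member peaks in *ndx1-4* (94.6%) and 70 of 82 in Col-0 (85.4%), beside 92.6% of the whole *ndx1-4* list and 88.1% of the whole Col-0 list. The 4 unpaired peaks in *ndx1-4* measured 220 to 240 bases with scores of 57 to 73. The 12 in Col-0 measured 200 to 340 bases with scores of 62 to 81. AT5G45240 had a peak in both lists at different places, over residues 738 to 790 in *ndx1-4* and in an intron near the start in Col-0.

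In the 70 pairs the *ndx1-4* peak was longer in 19 (27.1%), the Col-0 peak in 34 (48.6%), and 17 had equal lengths (24.3%). Over all 12306 pairs the *ndx1-4* peak was longer in 28.6%, the Col-0 peak in 42.4% and neither in 29.0%. Edges lie on a 20-base grid, so the smallest difference is 20 bases. The widest gap was at AT5G45210, with 200 bases in *ndx1-4* and 460 in Col-0, followed by the longer RPP13 peak. In the other direction AT1G51480, a CC gene covered over residues 11 to 144 in *ndx1-4* and 44 to 137 in Col-0, had 400 bases in *ndx1-4* and 280 in Col-0. Of the 7 pairs that differed by at least 100 bases, 1 was longer in *ndx1-4* and 6 in Col-0, and over all pairs 906 differed so far, with 350 longer in *ndx1-4* and 556 in Col-0. Both edges matched in 9 member pairs (12.9%) and in 21.8% of all pairs.

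**Figure D5:**
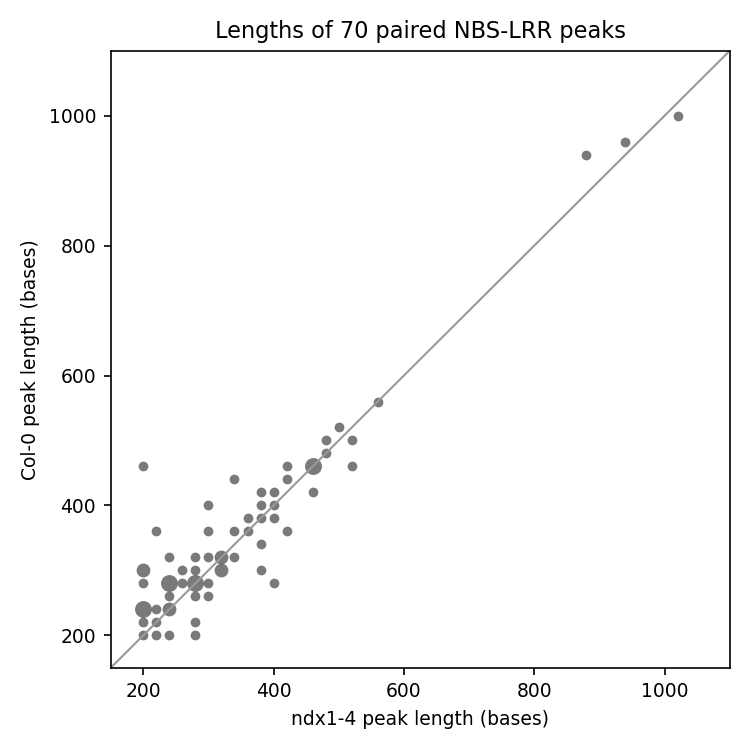
Length in bases of each of 70 paired member peaks in *ndx1-4* (horizontal) against Col-0 (vertical), with larger points for pairs of the same lengths and a line of equal length. Points lie close to the line, and the one furthest above it is AT5G45210 at 200 bases in *ndx1-4* and 460 in Col-0.

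Clustered members had a peak in 34 of 96 genes in *ndx1-4* (35.4%, interval 26.6 to 45.4%) and 38 in Col-0 (39.6%, interval 30.4 to 49.6%). Single members had one in 21 of 45 genes in *ndx1-4* (46.7%, interval 32.9 to 60.9%) and 24 in Col-0 (53.3%, interval 39.1 to 67.1%). The intervals of the 2 positions overlapped in each list. Within the TIR class, 16 of 65 clustered genes had a peak in *ndx1-4* and 17 in Col-0, and 11 of 26 single genes in *ndx1-4* and 10 in Col-0. Within the CC class, 10 of 16 clustered genes had one in *ndx1-4* and 11 in Col-0, and 4 of 9 single genes in *ndx1-4* and 5 in Col-0. Chromosome 1 held 43 members, of which 24 had a peak in *ndx1-4* and 26 in Col-0, and none of the 4 members on chromosome 2 had one in either list.

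Among the 34 clusters, 15 had no peak in either list and 4 had one at every member in both lists. The 2 largest had 8 members each. In the cluster from AT1G58390 to AT1G59218, with 7 CC genes and 1 unnamed gene, 7 members had a peak in *ndx1-4* and 7 in Col-0, with 12 peaks in each list. In the cluster from AT4G16857 to AT4G16960, with 8 TIR genes that include RPP4, SNC1 and RPP5, 2 members had a peak in *ndx1-4* and the same 2 in Col-0. Those were AT4G16940, with an identical 220-base peak in both lists over residues 902 to 975, and AT4G16960, with 460 bases in each list over its end. The 7 TIR genes of the cluster that ends in RPS4 and RRS1 had a peak in 5 members in each list. These came from 4 peaks in each list, since AT5G45210 and AT5G45220 share 1. AT1G61190, in a pair with AT1G61180, had 4 peaks in each list, the most of any member, and its strongest lay in the 5′ UTR with 520 bases in *ndx1-4* (score 169) and 500 in Col-0 (score 175).

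Sequence shared between copies limits where a peak can be placed. In the AT1G58390 to AT1G59218 cluster a median of 56.9% of each window consisted of 31-base words that occur more than once in the reference. The coding peaks of AT1G58807, AT1G58848 and AT1G59218 consisted wholly of such words in both lists. Their first covered residue was 342 in Col-0 in each gene, and in *ndx1-4* it was 348 in AT1G58807 and 342 in the others. An exon opens at residue 342, and the peaks reading 342 began in the intron before it, so the match is not one of peak edges. In Col-0 these peaks held 3 (AT1G58807), 69 (AT1G58848) and 87 (AT1G59218) intronic bases. AT1G59124 had a coding peak in Col-0 alone, over residues 342 to 381. The coding stretches under the *ndx1-4* peaks of AT1G58807 and AT1G59218 are shown for their likeness, with 1 difference in 216 aligned bases. The AT1G58848 stretch had 0 differences from AT1G59218 over 191 bases. Runs of purines are again in capitals.
AT1G58807 (chr1:21781781-21782060, plus strand): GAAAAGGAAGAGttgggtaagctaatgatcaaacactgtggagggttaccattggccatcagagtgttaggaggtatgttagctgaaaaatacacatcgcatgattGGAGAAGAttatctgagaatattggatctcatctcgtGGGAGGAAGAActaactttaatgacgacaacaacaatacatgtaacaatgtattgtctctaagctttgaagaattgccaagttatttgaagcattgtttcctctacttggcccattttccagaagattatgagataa
AT1G59218 (chr1:21829588-21829820, plus strand): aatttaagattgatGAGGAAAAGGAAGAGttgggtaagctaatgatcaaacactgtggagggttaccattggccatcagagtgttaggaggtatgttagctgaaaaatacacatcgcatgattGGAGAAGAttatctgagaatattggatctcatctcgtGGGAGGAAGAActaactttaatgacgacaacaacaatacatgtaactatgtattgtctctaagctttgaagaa

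These copies supplied 3 of the 4 CC genes covered between the P-loop and the MHD motif in *ndx1-4*, AT1G58410 being the other. How the aligner placed reads that fit several copies is not given, and its part in these peaks was not tested. At least 50% of such words were found in 6 of 74 member peaks in *ndx1-4* and 7 of 82 in Col-0, and each of these lay in that cluster. Outside it, such words made up 46.2% of the RPP8 peak in *ndx1-4* and 45.3% in Col-0. The AT5G35450 peak held 18.4% in *ndx1-4* and 21.0% in Col-0, so reads could also be shared between copies there. Without those peaks, 10 CC genes had a peak in *ndx1-4* (40%) and 12 in Col-0 (48%), and the TIR counts stayed at 27 in both lists. Members with under 5% of such words in their window had a peak in 38.7% of 93 genes in *ndx1-4* and 44.1% in Col-0, and those with at least 20% had one in 41.4% of 29 genes in *ndx1-4* and 48.3% in Col-0.

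Genes that act with the receptors were described from a list of 28. A peak was found for 13 in *ndx1-4* (46.4%) and 14 in Col-0 (50%), with 12 in both lists (42.9%), beside 36%, 37.6% and 34% of all protein-coding genes. A gene counted in both lists can have its peaks at different places or only in the flanks. EDS1, the hub of TIR signalling, had 2 peaks in each list. Its partner PAD4 had 1 peak in *ndx1-4*, past the gene end, and 2 in Col-0, and SAG101, the other partner, had 1 in each list. NDR1, needed by several CC receptors, had a peak with the same edges in both lists. HSP90.1, a chaperone of the receptors, had 2 peaks in each list. RIN4, the protein guarded by RPM1 and RPS2, had no peak in *ndx1-4* and 1 in Col-0. That peak had 600 bases and a score of 210, at or above 95.8% of its list. HSP81-2, another HSP90 gene, had a 340-base peak in *ndx1-4* (score 182, at or above 95% of that list) with no Col-0 peak at that place. Its second peak had 440 bases in *ndx1-4* and 420 in Col-0. EDM2 and MOS1, chromatin-linked regulators of receptor genes, had 2 and 1 peaks in *ndx1-4* and 1 each in Col-0. The EDM2 peak found in both lists lay outside the gene body. The MOS1 peaks did not overlap, at chr4:12732901-12733120 in *ndx1-4* and chr4:12732421-12732640 in Col-0. CBP60G, a regulator of salicylic acid synthesis, had a peak only in Col-0 (score 75), and the co-chaperone gene SGT1A only in *ndx1-4*. The SGT1A peak scored 56, near the lowest score of that list, 53. NPR1, a salicylic acid receptor, PBS1 and PR1 had no peak in either list.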

How the data were processed

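DRIP-seq libraries of *ndx1-4* and Col-0 seedlings were processed by the authors, whose notes name Bowtie2, SAMtools, Picard, deepTools and MACS2 on TAIR10, without versions. The control, threshold and use of both immunoprecipitated libraries in peak calling are not given in the sources used here. The deposited lists give each peak's start and end (other values, on a 20-base grid) and a whole-number score. Depth is unknown. Peaks were matched to RefSeq TAIR10.1 genes, whose nuclear chromosomes have the TAIR10 lengths, with Python 3.11.15, numpy 2.4.6, scipy 1.17.1 and matplotlib 3.10.9. Members, gene lists and measures were chosen with earlier results of these data known. Genes were named where they had a known role, a peak in 1 list alone, at least 3 peaks, one of the 5 longest or 5 highest-scoring peaks per list, one of the 5 largest length differences in each direction, or lay in the largest clusters, and others named were chosen after their values were seen. The alternatives were the gene body alone, 1000 bases on each side, the higher-scoring 50% of peaks, peaks of at least 300 or 500 bases, 100 bases of overlap, peaks with under 50% of repeated 31-base words, clusters within 50 kb and class from the kinase-2 residue. Motifs were sought in the translation of the longest coding sequence, the P-loop as G, any 4 residues, G, K and S or T. The overlap step was tested on simulated data and recovered 700 of 700 planted genes among 2000.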

Additional observations from a re-analysis of the deposited data

How the results depend on the processing

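Of 116 alternative values over 13 results, 65 stayed within the tolerance (1.5-fold for counts, the Wilson interval for cover) and 51 did not. The tally is no measure of robustness. Keeping only part of the peaks must lower counts, and the cover interval takes neighbouring bases as independent. Class by the kinase-2 residue changed the number of genes, so its TIR counts moved though the shares were 27.9% against 29.7% in each list. With the higher-scoring 50% of peaks, 22 members had a peak in *ndx1-4*, 28 in Col-0 and 22 in both lists, with 12 and 13 TIR, 3 and 5 CC, 16 and 18 clustered and 6 and 10 single members (*ndx1-4*, then Col-0). Members then stood at 15.6% in *ndx1-4* and 19.9% in Col-0, below the 20.6% (*ndx1-4*) and 21.3% (Col-0) of all protein-coding genes. With peaks of at least 300 bases the counts were 30 in *ndx1-4*, 37 in Col-0 and 29 in both. These held 15 TIR in *ndx1-4*, 4 and 6 CC, 19 and 25 clustered and 11 and 12 single members. Members stood at 21.3% in *ndx1-4* and 26.2% in Col-0, beside 25.3% (*ndx1-4*) and 26.7% (Col-0) of all protein-coding genes. With peaks of at least 500 bases the counts were 6 in *ndx1-4*, 6 in Col-0 and 5 in both. These held 2 and 3 TIR, 0 and 0 CC, 2 and 3 clustered and 4 and 3 single members. Members stood at 4.26% in each list, below the 10.0% (*ndx1-4*) and 11.4% (Col-0) of all protein-coding genes. With the higher-scoring 50% of peaks 12% of CC genes and 13.2% of TIR genes had a peak in *ndx1-4*, so the higher CC share was lost there. In Col-0 the shares were 20% (CC) and 14.3% (TIR). With at least 500 bases the higher CC share was lost in both lists, on too few genes to order the classes. Class by the kinase-2 residue gave 12 of 43 TIR genes in each list and 26 of 42 CC genes in *ndx1-4* and 30 in Col-0. Cover of member windows was 2.6% in *ndx1-4* and 2.75% in Col-0 for the gene body, 3.14% and 3.55% with 1000 bases on each side, 1.23% and 1.6% with higher-scoring peaks, 1.95% and 2.32% with peaks of at least 300 bases, 0.443% and 0.451% with at least 500 bases, and 2.84% and 3.18% without peaks of mostly repeated words. Counting only peaks over the member and no other gene, chosen after seeing the data, gave 2.21% in *ndx1-4*, 2.34% in Col-0 and 25 clustered members in Col-0. It left 43 members in each list (30.5%), beside 24.8% (*ndx1-4*) and 25.9% (Col-0) of all protein-coding genes. The gene body alone gave 50 in *ndx1-4* (35.5%) and 51 in Col-0 (36.2%), beside 28.2% (*ndx1-4*) and 29.6% (Col-0) of all protein-coding genes. No paired analysis was possible because the deposited values are 1 list for each genotype, and no replicate could be left out. Depth per library is unknown, so a missing peak is not shown to be a missing R-loop.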
